A study of Homo sapiens with 6 samples.

Results

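The proteins of the mitochondrial ribosome are described here at the level of their mRNA in Ls174t cells, a human colorectal adenocarcinoma line. The members are all rows of the expression table whose gene identifier maps to a protein-coding gene with a symbol of MRPL or MRPS and a number, which gave 77 of the 17563 genes with values. Of these, 49 carry MRPL names and are counted as the large subunit, and 28 carry MRPS names and are counted as the small subunit. All 77 passed the filter on low values, an average of 1 FPKM or more across the 6 libraries, and entered the test. FPKM counts fragments per kilobase of transcript, scaled to the mapped fragments of a library, so it is corrected for transcript length.

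The study set a stable Ls174t line overexpressing RNF186, an E3 ubiquitin ligase, against an Ls174t control line with genotype Vector. Both lines were untreated, and 3 dishes of 6 cm from each were grown for 48 h in DMEM (10% serum, 1% penicillin and streptomycin) before total RNA was sequenced. Each group was 1 line, so the p-values below measure the spread between dishes of 1 line and not between independently made lines. Whether either line was a single clone, and which promoter drove RNF186, is not stated in the labels.

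Mitochondrial ribosomes translate the few proteins encoded by mitochondrial DNA, all of them subunits of the respiratory chain and ATP synthase. Their RNA comes from the mitochondrial genome, whereas every protein of the particle is encoded in the nucleus, made in the cytosol and imported. Some of these proteins have a bacterial counterpart, and the others were added in the line that led to mitochondria. The small subunit decodes the mRNA, and the large subunit holds the peptidyl transferase centre, the stalk that receives translation factors, the central protuberance that faces the small subunit, and the exit through which the new chain reaches the inner membrane.

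The targeted gene followed the labels: RNF186 stood at 451.7, 577.5 and 484.6 FPKM in the RNF186 line, against 0.69, 0.71 and 0.61 FPKM in the vector line (log2 change 8.235 ± 0.0816, SE, limma adjusted p = 3.43e-12). Epithelial markers were expressed, with EPCAM at a mean of 552 FPKM over all libraries, while CD3E, VWF, COL1A1, COL3A1 and DCN were at or near 0. Of the 9 markers of other cell types, CD68, at a mean of 23.0 FPKM, and PTPRC, at 2.11 FPKM, were the only ones above 2 FPKM. Of the retinal markers, looked at because the extraction text speaks of retinas, RCVRN had no value, GNAT1 averaged 0.08 FPKM and CRX 1.00 FPKM. The files used here give no depth. Reading each value found in 1 library only as 1 fragment put the libraries at a median of 14380000 to 15070000 fragments, at which MRPL55, the member with the fewest, had about 145 fragments per library. Over all genes, libraries of the same group correlated at 0.994 to 0.998 and libraries of different groups at 0.973 to 0.979.

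Of the 77 mitochondrial ribosomal protein mRNAs, 38 fell and 2 rose in the RNF186 line at an adjusted p under 0.05, and 37 did not pass the test. The estimated change was below 0 in 68 of the 77 and above 0 in 9. The test was limma on log2(FPKM + 1) over 11632 genes, two-sided with Benjamini-Hochberg adjustment, and it called 38.8% of all tested genes, 18.9% lower and 19.9% higher. The share of members called lower was 49.4% and the share called higher 2.6%. Their median log2 change was -0.17, with a range of -0.66 to 0.22, beside a median of -0.0046 over all tested genes. The changes were small in size: in 12 of the 38 that fell was the mean in the RNF186 line under 0.75 of the mean in the vector line.

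The individual libraries were also compared without a model. In 48 members all 3 RNF186 values lay below all 3 vector values, in 4 they lay above, and in 25 the groups overlapped. Among all tested genes, 23.8% had every RNF186 value below every vector value and 25.7% had every RNF186 value above. In a bulk culture, fewer cells of a kind and less RNA per cell cannot be told apart.

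**Figure D1:**
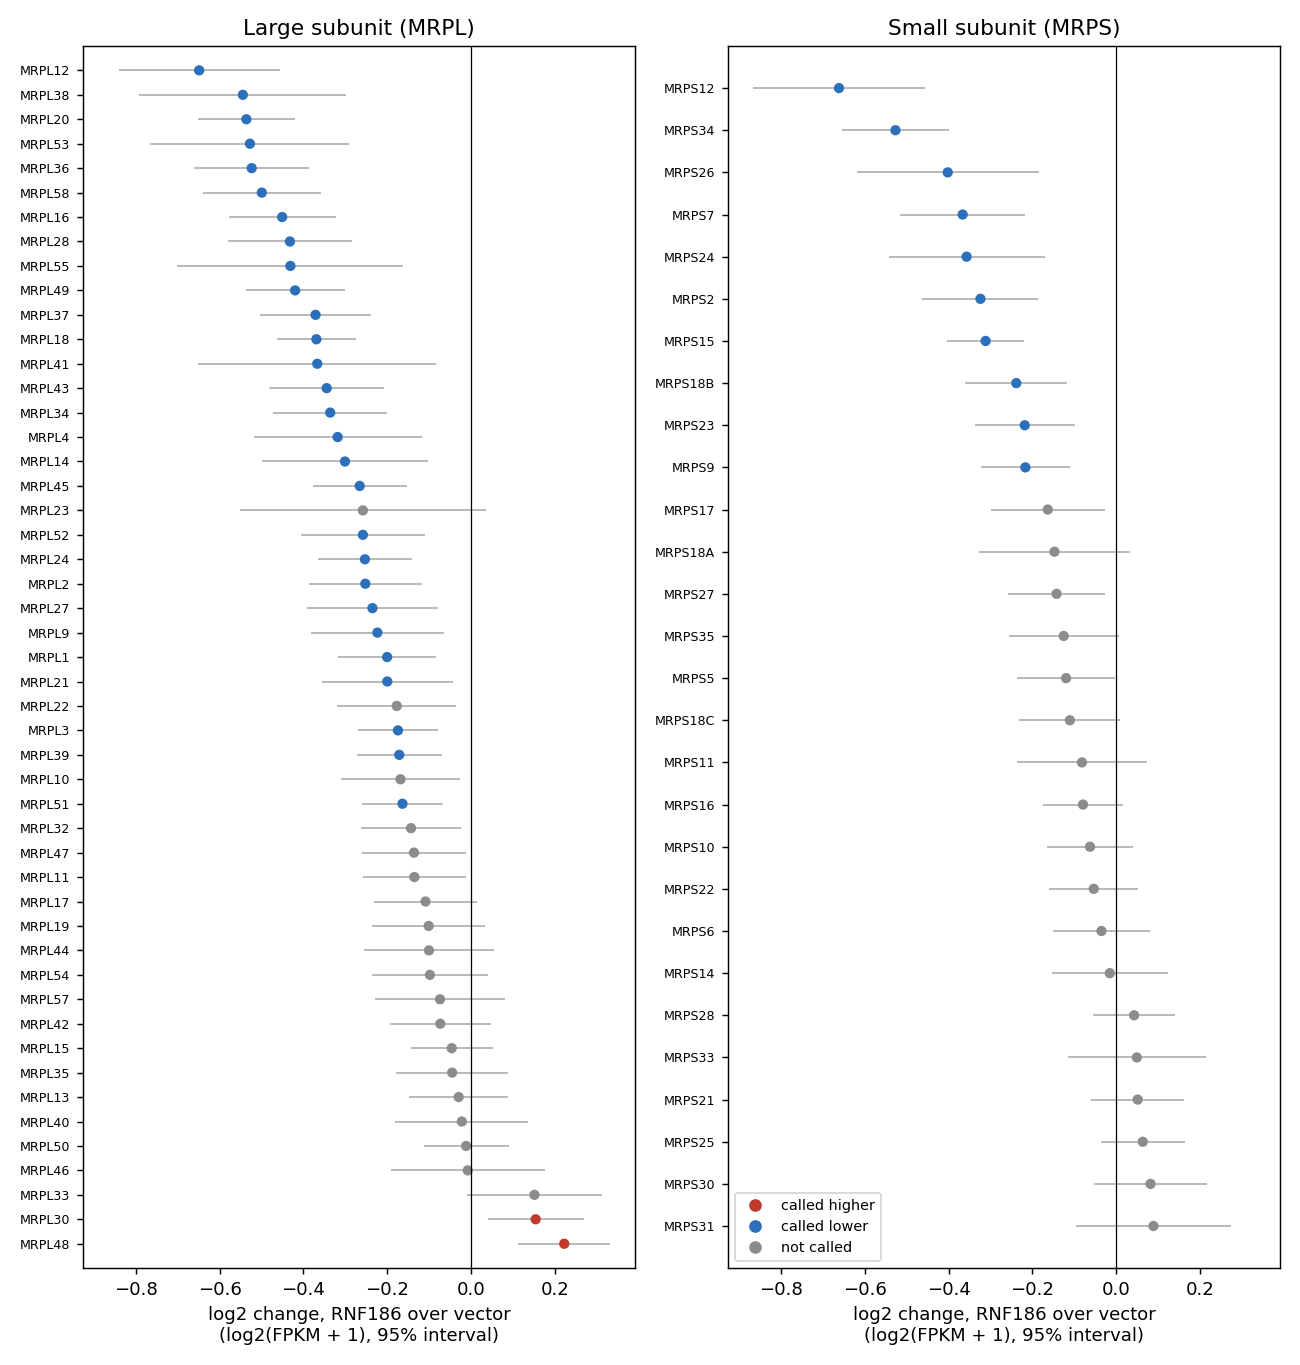
Log2 change (RNF186 over vector, on the log2(FPKM + 1) scale) of each of the 49 large-subunit and 28 small-subunit members, with 95% confidence intervals from limma; blue points were called lower and red points called higher at an adjusted p under 0.05, and grey points were not called. In the large subunit 28 members fell and 2 rose, in the small subunit 10 fell and none rose.

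The large subunit had 28 of 49 members lower and 2 higher, MRPL48 and MRPL30, with a median log2 change of -0.20. The number lower was 18 without RNF186 replicate 1. That fit called 1499 of all tested genes lower, against 2195 in the main fit. MRPL12, the protein that forms the stalk and contacts the translation factors, had 62.4, 77.5 and 66.5 FPKM in the RNF186 line, against 120.2, 104.6 and 100.1 FPKM in the vector line. The groups did not overlap, and the lowest vector library lay well above the highest RNF186 library. The log2 change of MRPL12 was -0.65 ± 0.086 (SE), adjusted p = 0.000339 by limma. MRPL53, a mitochondrial protein beside the stalk, had 12.3, 17.4 and 16.7 FPKM in the RNF186 line, against 23.1, 22.9 and 21.6 FPKM in the vector line, a log2 change of -0.53 ± 0.106 (SE, limma adjusted p = 0.00385). The other members of the stalk list did not pass the test. MRPL11 and MRPL10, which make the stalk base, changed by -0.14 and -0.17 on the log2 scale at limma adjusted p of 0.0764 and 0.0614, both with all RNF186 values below the vector values. MRPL54 changed by -0.10 (limma adjusted p = 0.236) and its groups overlapped.

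Around the central protuberance 4 of 7 members fell (57.1%) and 1 rose (14.3%), beside 18.9% and 19.9% of all tested genes. MRPL38 had 18.8, 27.4 and 21.2 FPKM in the RNF186 line, against 34.8, 32.8 and 31.0 FPKM in the vector line, a log2 change of -0.54 ± 0.111 (SE, limma adjusted p = 0.0040). RNF186 replicate 2 was the highest of the RNF186 libraries for this gene, still below every vector library. MRPL58, also known as ICT1, is a peptidyl-tRNA hydrolase that became a structural protein, and it had 25.5, 25.3 and 22.9 FPKM in the RNF186 line, against 37.7, 33.0 and 34.9 FPKM in the vector line. Its log2 change was -0.50 ± 0.0629 (SE, limma adjusted p = 0.000242), with narrow spread on the RNF186 side. MRPL18 was at 80.6, 79.9 and 80.4 FPKM in the RNF186 line, against 103, 108 and 102 FPKM in the vector line (log2 change -0.37, limma adjusted p = 0.000129). MRPL27, a homolog of a bacterial protein near the peptidyl transferase centre, had 39.9, 41.0 and 39.1 FPKM in the RNF186 line, against 53.2, 43.3 and 45.8 FPKM in the vector line, and its call (log2 change -0.24, limma adjusted p = 0.0239) ended with no filter on low values and when RNF186 replicate 1, RNF186 replicate 3 or vector replicate 1 was left out. MRPL40 and MRPL46 had overlapping groups and log2 changes of -0.02 and -0.01.

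MRPL48, which also lies in the central protuberance, went the other way. It had 41.7, 40.3 and 44.2 FPKM in the RNF186 line, against 35.1, 36.4 and 36.3 FPKM in the vector line. The lowest RNF186 library was above the highest vector library, and the log2 change was 0.22 ± 0.0493 (SE, 95% confidence interval 0.11 to 0.33, limma adjusted p = 0.00622). The second member that rose, MRPL30, is a homolog of bacterial L30 and had 21.03, 22.3 and 23.0 FPKM in the RNF186 line, against 19.5, 19.7 and 20 FPKM in the vector line. Its log2 change was 0.15 ± 0.0514 (SE, limma adjusted p = 0.0376). The call of MRPL30 ended under median scaling, without the mean-variance trend, with the replicate block, under the length and GC correction and without any one of 4 libraries (RNF186 replicate 3 and each vector replicate), while that of MRPL48 held in all 18 alternative fits.

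At the polypeptide exit all 6 members had a change below 0, and 2 of them fell (33.3%). The share lower was 49.4% of all members and 18.9% of all tested genes. MRPL45, which anchors the ribosome to the inner membrane, had 27.2, 26.2 and 26.3 FPKM in the RNF186 line, against 33.5, 30.6 and 32.2 FPKM in the vector line (log2 change -0.27 ± 0.0502, SE, limma adjusted p = 0.00269). MRPL24 had 32.6, 35.1 and 32.1 FPKM in the RNF186 line, against 40.9, 39.7 and 38.9 FPKM in the vector line (log2 change -0.25 ± 0.0503, SE, limma adjusted p = 0.00356). The spread within each group was smaller than the gap between the groups for both genes. MRPL23 had the widest spread of the list, with 18.4, 23.8 and 18.1 FPKM in the RNF186 line and 25.6, 27.9 and 19.4 FPKM in the vector line, and did not pass the test at limma adjusted p = 0.149. MRPL22, MRPL47 and MRPL17 gave log2 changes of -0.18, -0.14 and -0.11, with limma adjusted p of 0.0502, 0.0793 and 0.147.

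Another 4 large-subunit proteins were among the 10 members with the greatest falls. MRPL20, a homolog of the rRNA-binding bacterial L20, had 59.4, 64.1 and 57.6 FPKM in the RNF186 line, against 91.1, 85.1 and 87.7 FPKM in the vector line. Its log2 change of -0.54 ± 0.0519 (SE) had the smallest adjusted p of all members, 4.01e-05 by limma. MRPL36 had 40.9, 41.1 and 35.4 FPKM in the RNF186 line, against 55.6, 58.0 and 56.2 FPKM in the vector line (log2 change -0.52, limma adjusted p = 0.000154). Its bacterial counterpart is a small zinc-binding protein of the large subunit. MRPL16, whose bacterial counterpart lies near the peptidyl transferase centre, had 52.8, 49.2 and 48.9 FPKM in the RNF186 line, against 74.4, 67.5 and 65.7 FPKM in the vector line (log2 change -0.45, limma adjusted p = 0.000259). MRPL28 had 26.6, 29.2 and 27.0 FPKM in the RNF186 line, against 41.2, 36.7 and 35.0 FPKM in the vector line (log2 change -0.43, limma adjusted p = 0.000842). In each of these genes the highest RNF186 library lay below the lowest vector library, and each call held in all 18 alternative fits.

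Besides MRPL3 and MRPL51, which are described with the levels, 14 more large-subunit members fell, with log2 changes of -0.43 to -0.17. MRPL49, MRPL37, MRPL43, MRPL34 and MRPL2 kept their calls in all 18 alternative fits. MRPL49 had 38.8, 41.9 and 40.8 FPKM in the RNF186 line, against 57.2, 54.6 and 51.7 FPKM in the vector line (log2 change -0.42, limma adjusted p = 0.000242). MRPL37 had 53.5, 58.6 and 52.0 FPKM in the RNF186 line, against 75.6, 69.9 and 67.6 FPKM in the vector line (log2 change -0.37, limma adjusted p = 0.00106). MRPL49 and MRPL37 are both mitochondria-specific proteins, and neither overlapped between the lines. The calls of MRPL55, MRPL41, MRPL4, MRPL14, MRPL52, MRPL9, MRPL1, MRPL21 and MRPL39 each ended when at least 1 library was left out. MRPL41 was the least separated of these, with 23.4, 30.4 and 20.5 FPKM in the RNF186 line and 36.6, 29.9 and 29.3 FPKM in the vector line, so that RNF186 replicate 2 lay above vector replicates 2 and 3.

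Of the 19 large-subunit members that did not pass the test, 18 had a change below 0. Besides those of the position lists, they were MRPL32, MRPL19, MRPL44, MRPL57, MRPL42, MRPL35, MRPL15, MRPL13 and MRPL50, with log2 changes of -0.14 to -0.01. MRPL44, which resembles a bacterial RNase III, had 34.2, 28.4 and 30.9 FPKM in the RNF186 line and 35.1, 33.6 and 31.6 FPKM in the vector line (log2 change -0.10, limma adjusted p = 0.285). MRPL33 alone of the 19 had a change above 0, with 64.2, 53.4 and 59.7 FPKM in the RNF186 line and 50.1, 51.7 and 57.3 FPKM in the vector line, and its groups overlapped (log2 change 0.15, limma adjusted p = 0.126).

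The small subunit had 10 of 28 members lower and none higher, with a median log2 change of -0.12. The number lower was 18 (64.3%) after the length and GC correction described below, beside 28.4% of all tested genes. After rescaling to TPM the median was -0.0747, beside 0.04 over all tested genes. MRPS12, a homolog of the bacterial S12 protein of the decoding centre, had the greatest fall of all 77. It had 21.45, 28.72 and 24.99 FPKM in the RNF186 line, against 41.3, 41.6 and 37.1 FPKM in the vector line. The groups were well apart, and the mean fell by 37.4%, with a log2 change of -0.66 ± 0.0919 (SE, 95% confidence interval -0.87 to -0.46, limma adjusted p = 0.000453). An exon of MRPS12 overlaps SARS2, a mitochondrial seryl-tRNA synthetase gene on the other strand, and the library kit named in the labels does not mark strand, so reads of the overlap cannot be assigned to one of them. MRPS34, a mitochondria-specific protein needed for a stable small subunit, had 59.4, 63.2 and 56.4 FPKM in the RNF186 line, against 91.8, 84.9 and 82.5 FPKM in the vector line. Its log2 change was -0.53 ± 0.0572 (SE, limma adjusted p = 9.08e-05).

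The other 8 small-subunit members that fell were MRPS26, MRPS7, MRPS24, MRPS2, MRPS15, MRPS18B, MRPS23 and MRPS9, with log2 changes of -0.40 to -0.22. MRPS7, a homolog of the bacterial S7 protein that starts assembly of the small subunit head, had 36.2, 41.7 and 37.0 FPKM in the RNF186 line, against 52.8, 46.2 and 49.9 FPKM in the vector line (log2 change -0.37, limma adjusted p = 0.00219). MRPS15, which binds the rRNA directly in bacteria, had among the tightest values, 61.8, 63.4 and 62.2 FPKM in the RNF186 line and 79.0, 76.9 and 77.3 FPKM in the vector line (log2 change -0.31, limma adjusted p = 0.000317). The calls of all 10 held in every alternative fit. Of the homologs of bacterial S18, only MRPS18B passed the test, with 31.6, 34.9 and 31.1 FPKM in the RNF186 line and 39.2, 39.2 and 37.2 FPKM in the vector line (log2 change -0.24, limma adjusted p = 0.00748). MRPS18A and MRPS18C changed by -0.15 and -0.11 at limma adjusted p of 0.176 and 0.134, and whether the 3 homologs differ in their change was not tested.

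Of the 18 small-subunit members that did not pass the test, 12 had a change below 0. Besides MRPS18A, MRPS18C and the members named below for their level, these were MRPS17, MRPS27, MRPS5, MRPS16, MRPS10, MRPS22 and MRPS6, with log2 changes of -0.16 to -0.03. MRPS27, a pentatricopeptide repeat protein, had 32.9, 34.7 and 31.8 FPKM in the RNF186 line and 38.2, 35.4 and 36.4 FPKM in the vector line, without overlap but short of the threshold (log2 change -0.14, limma adjusted p = 0.0545). The remaining 6 had a change above 0. They were MRPS28, MRPS33, MRPS21, MRPS25, MRPS30 and MRPS31, with log2 changes of 0.04 to 0.09. In MRPS25 and MRPS28 all RNF186 values lay above the vector values: MRPS25 had 27.4, 27.7 and 28.3 FPKM in the RNF186 line and 26.7, 26.7 and 26.2 FPKM in the vector line. In the other 4 the groups overlapped. MRPS30, which despite its name sits in the large subunit, had 39.4, 33.8 and 38.2 FPKM in the RNF186 line and 34.4, 34.8 and 35.7 FPKM in the vector line.

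**Figure D2:**
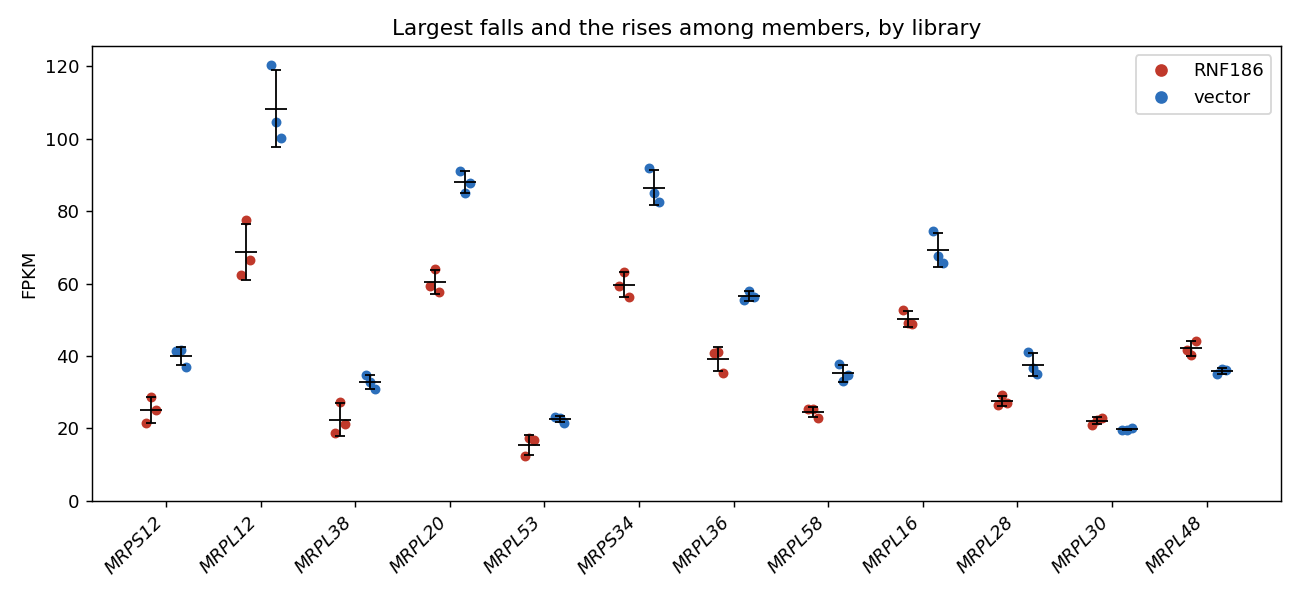
FPKM in every library of the 10 members with the greatest falls and the 2 that rose; points are single libraries, RNF186 (red) to the left of vector (blue) for each gene, and black lines are the mean ± SD of 3 libraries. The 3 RNF186 values lie below the 3 vector values in each of the 10 and above them in MRPL48 and MRPL30.

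Levels of the members spanned a mean of 9.24 to 171 FPKM over the 6 libraries, and 48 of the 77 lay from 20 to under 50 FPKM. The highest were MRPL51, MRPL3 and MRPS35. MRPL51 had 156, 161 and 167 FPKM in the RNF186 line, against 180.1, 178 and 184 FPKM in the vector line, a small but non-overlapping difference (log2 change -0.16, limma adjusted p = 0.0149). MRPL3, a homolog of a bacterial protein that reaches toward the peptidyl transferase centre, had 96.9, 95.2 and 102 FPKM in the RNF186 line, against 111, 112 and 109 FPKM in the vector line (log2 change -0.17, limma adjusted p = 0.0102). Both calls ended when values were rescaled to TPM, and that of MRPL51 also without RNF186 replicate 1 or vector replicate 3. MRPS35 did not pass the test, at 94.2, 86.7 and 99.6 FPKM in the RNF186 line and 96.9, 106 and 103 FPKM in the vector line. The lowest members were MRPL22, MRPS11 and MRPS14, with means of 9.24, 10.2 and 10.7 FPKM, and none of them passed the test. MRPS14 had 9.96, 10.98 and 10.99 FPKM in the RNF186 line and 10.9, 10.3 and 11.1 FPKM in the vector line. The order of the levels and the size of the change were weakly related across members (Spearman rho -0.156, n = 77 genes that share the same 6 libraries).

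Large and small subunits were then set side by side. Summed over the 49 large-subunit members, the RNF186 libraries had 1802, 1878 and 1810 FPKM and the vector libraries 2233, 2153 and 2125 FPKM. Summed over the 28 small-subunit members, the RNF186 libraries had 1090, 1105 and 1100 FPKM and the vector libraries 1255, 1217 and 1238 FPKM. Neither sum overlapped between the lines. The mean large-subunit sum was 1830 ± 41.9 FPKM in the RNF186 line and 2170 ± 56.0 FPKM in the vector line (SD, n = 3 each), a difference of -15.7%. The mean small-subunit sum was 1098 ± 7.96 FPKM in the RNF186 line and 1237 ± 18.7 FPKM in the vector line (SD, n = 3 each), a difference of -11.2%. The ratio of the large to the small sum was 1.65, 1.70 and 1.65 in the RNF186 line, against 1.78, 1.77 and 1.72 in the vector line, also without overlap. With MRPS18A and MRPS30 counted in the large subunit, where they sit, the ratio was 1.831, 1.878 and 1.817 in the RNF186 line, against 1.948, 1.932 and 1.875 in the vector line, and the groups overlapped. With the subunits taken by name, the means of the ratio were 1.67 ± 0.0292 in the RNF186 line and 1.755 ± 0.0339 in the vector line (SD, n = 3 each), and the gap between the closest libraries was smaller than either SD. Part of this difference rested on MRPL12: without it the mean ratio was 1.604 in the RNF186 line and 1.668 in the vector line. No p is given for these sums, since the members were chosen with results known.

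All members together made up 0.746%, 0.753% and 0.749% of the summed FPKM in the RNF186 libraries, against 0.846%, 0.839% and 0.844% in the vector libraries. The summed FPKM of all genes was itself lower in the RNF186 line, by a difference of -3.37% between the means. Rescaling each library to the same sum, as in TPM, moved the median change of all tested genes to 0.04 and changed the split of calls over all genes to 2749 higher and 1606 lower, against 2314 higher and 2195 lower in FPKM. On that scale 33 members fell, 2 rose and the median change was -0.13, while 13.8% of all tested genes were called lower. Split at the members' median transcript GC content, 27 of the 38 above it fell (71.05%), with a median change of -0.28. At or below it 6 of 39 fell (15.4%), with a median of -0.03. The members that fell on the TPM scale were 23 of the large subunit (46.9%) and 10 of the small subunit (35.7%). Whether large and small subunit members differ in how often they fell was not tested.

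**Figure D3:**
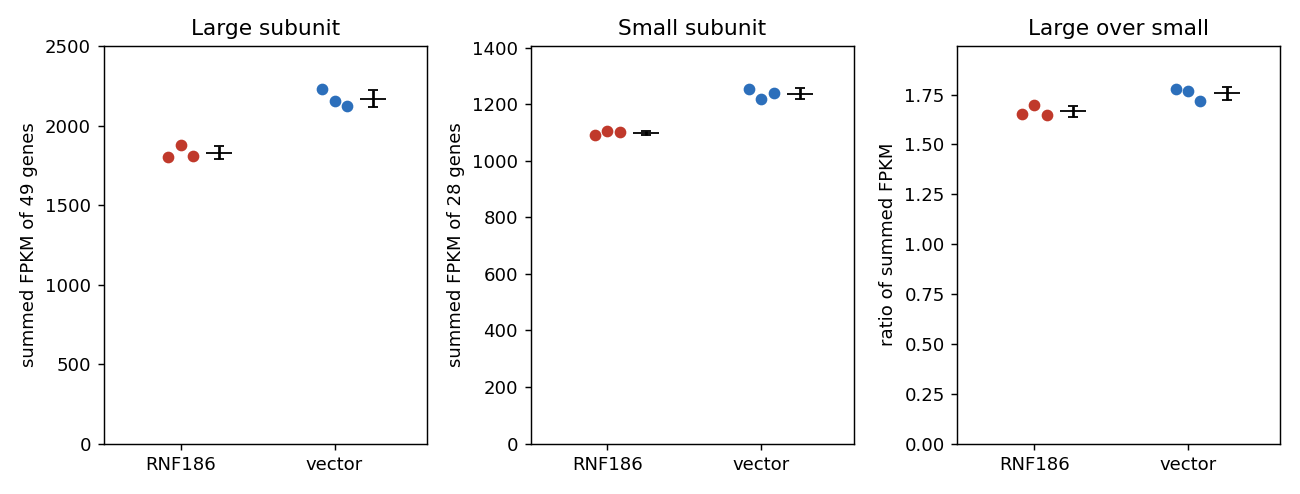
Summed FPKM of large-subunit and small-subunit members and the ratio of the large to the small sum, per library, with RNF186 libraries left of vector libraries; black lines are the mean ± SD of 3 libraries. Both sums lie lower in every RNF186 library, and the ratio is 1.65 to 1.70 in the RNF186 line and 1.72 to 1.78 in the vector line with members placed by name; with MRPS18A and MRPS30 moved to the large subunit the ratios of the lines overlap.

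Members were also split by evolutionary origin. Of the 28 large-subunit members numbered after a bacterial family, 16 fell and 1 rose (median log2 change -0.21), and of the 21 with a mitochondrial number 12 fell and 1 rose (median -0.17). In the small subunit 6 of 16 members with a bacterial number and 4 of 12 with a mitochondrial number fell, with medians of -0.13 and -0.09. The numbers follow origin only roughly, since MRPL47 and MRPS24 have bacterial counterparts. MRPS30 and MRPS18A are MRPS-named proteins of the large subunit. Counting them there gave 28 of 51 large-subunit (54.9%) and 10 of 26 small-subunit members (38.5%) lower.

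GC content of the transcript moved with the change. Of the 38 members above the members' median of 50.6% GC, 29 fell and none rose, with a median log2 change of -0.32. Of the 39 at or below it, 9 fell and both risers were among them, with a median of -0.07. Across the 77 members the Spearman rho between GC content and change was -0.665, and across 11567 tested genes with an annotated transcript it was -0.286. Among all tested genes above that GC content 27.0% fell with a median of -0.07, and among those at or below it 11.7% fell with a median of 0.04. MRPL18, at 48.0% GC and a log2 change of -0.37, had the greatest fall on the low side of the split, and MRPL54, at 63.1% GC and -0.10, was among the GC-rich members that did not pass the test.

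The libraries of 1 group also differed along GC content. RNF186 replicate 2, set against the mean of RNF186 replicates 1 and 3, deviated upward in GC-rich members (Spearman rho 0.759 over 77 members, 0.741 over 11567 genes). Vector replicate 1, set against the mean of vector replicates 2 and 3, deviated the same way with rho of 0.583 over members and 0.487 over all genes. In 28 of the 38 members that fell, RNF186 replicate 2 was the highest RNF186 library. Without RNF186 replicate 2, 46 members fell (59.7%) and 4 rose, beside 25.4% of all tested genes called lower, and the large-subunit median was -0.25. In that fit 33 of the 38 GC-rich and 13 of the 39 GC-poor members fell. With every library corrected for transcript length and GC content across genes, 55 members fell and 2 rose, beside 28.4% of all tested genes called lower. The 2 that rose were MRPL48 and MRPL33, while the call of MRPL30 ended. That correction left 32 of the 38 GC-rich and 23 of the 39 GC-poor members lower, with medians of -0.25 and -0.14, and the rho between change and GC content over the members was -0.398. The part of GC content in the difference between the lines was not tested beyond this correction.

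**Figure D4:**
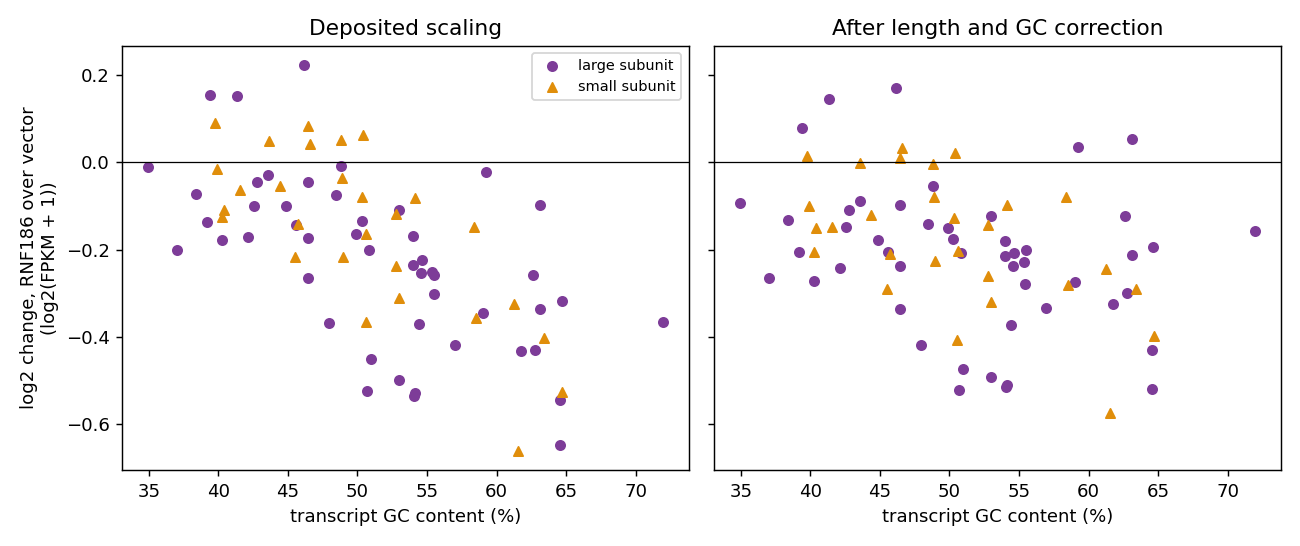
Log2 change (RNF186 over vector) of each member against the GC content of its annotated transcript in percent, on the deposited scaling (left) and after the length and GC correction (right); circles are large-subunit and triangles small-subunit members. The 38 members above 50.6% GC have a median change of -0.32 on the left and -0.25 on the right, and the 39 others -0.07 and -0.14.

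**Figure D5:**
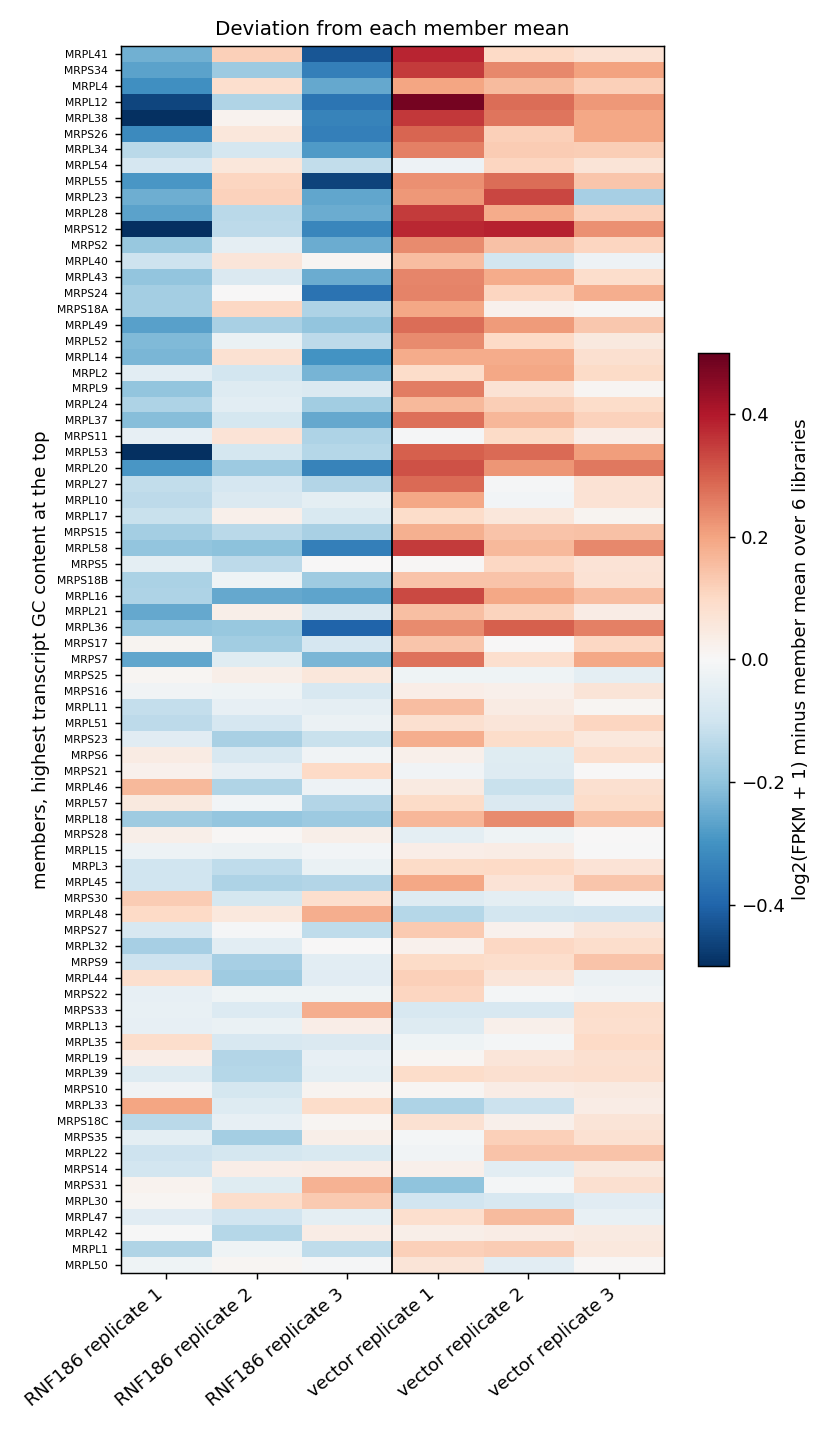
Deviation of each library from the member's mean over 6 libraries, in log2(FPKM + 1), for all 77 members ordered by transcript GC content with the highest at the top; RNF186 libraries are the 3 columns on the left. RNF186 replicate 2 is paler than RNF186 replicates 1 and 3 among the GC-rich members, and the contrast between the lines is weaker toward the bottom.

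Reads shared with other loci limit some members. The annotation holds 100 pseudogene symbols named after 41 of the members, and how shared reads were counted is not stated in the labels. Of the 36 members without such a pseudogene 22 fell and none rose (median -0.24), and of the 41 with one 16 fell and 2 rose (median -0.14), the 2 that rose being MRPL48 and MRPL30. Exons of 32 members overlap another gene, and 17 of these members fell, against 21 of the 45 without an overlap. Over all tested genes 18.9% were called lower. These splits also differed in transcript GC content. Its median was 53.5% without and 49.9% with a pseudogene, and 48.8% without and 54.1% with an overlap. Among the members with the greatest falls, MRPS12, MRPL12, MRPL38, MRPL20 and MRPL28 have such an overlap, and MRPL53, MRPS34, MRPL36, MRPL58 and MRPL16 have none. MRPL43 shares exonic sequence with TWNK, the mitochondrial helicase gene on the other strand, which fell too. MRPL49, MRPL37, MRPL34 and MRPL2, whose calls held in all alternative fits, also have exons that overlap genes on the other strand. In MRPL49 these genes are FAU and SYVN1.

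Partners of the mitoribosomal proteins were then looked at. Of the 5 proteins of the particle under other names, PTCD3, an RNA-binding protein of the small subunit, rose. It had 35.2, 32.8 and 34.4 FPKM in the RNF186 line, against 23.4, 24.4 and 25.1 FPKM in the vector line (log2 change 0.47 ± 0.0508, SE, limma adjusted p = 8.41e-05). Its lowest RNF186 library lay above its highest vector library. AURKAIP1, another small-subunit protein, fell, with 56.9, 63.1 and 52.9 FPKM in the RNF186 line and 77.1, 70.8 and 69.1 FPKM in the vector line (log2 change -0.32, limma adjusted p = 0.00465). CHCHD1, DAP3 and GADD45GIP1 did not pass the test, with log2 changes of -0.10, 0.06 and -0.07.

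Of 19 assembly factors of the large subunit, 7 fell (36.8%) and 1 rose (5.26%), beside 18.9% and 19.9% of all tested genes. The rRNA methyltransferase MRM3 changed by -0.51 on the log2 scale (9.37, 11.9 and 11.2 FPKM in the RNF186 line, against 17.0, 14.7 and 15.5 FPKM in the vector line), and the helicase DDX28, the GTPase MTG2 and the helicase DHX30 by -0.43, -0.35 and -0.24, at limma adjusted p of 0.0014, 0.00353, 0.00552 and 0.0119. NGRN rose by 0.24. Of 7 assembly factors of the small subunit 5 fell (71.4%), C1QBP, TFB1M, ERAL1, METTL17 and RBFA, with log2 changes of -0.25 to -0.18. TFB1M methylates the small-subunit rRNA, and ERAL1 is a GTPase that binds it.

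Of 18 translation factors, 2 fell (11.1%), beside 18.9% of all tested genes. OXA1L, the insertase that receives chains at the exit, had 90.4, 96.4 and 98.4 FPKM in the RNF186 line, against 127, 119.9 and 114 FPKM in the vector line (log2 change -0.34, limma adjusted p = 0.000903). TSFM, an elongation factor, fell by 0.16 on the log2 scale. Of 12 genes of mitochondrial transcription and DNA maintenance 3 fell, the helicase TWNK, the polymerase subunit POLG and the transcription factor TFB2M, by log2 changes of -0.33, -0.29 and -0.21. Of 14 genes of mitochondrial RNA processing 5 fell (35.7%) and 1 rose (7.14%). The falls were led by TRMT10C and HSD17B10, both subunits of mitochondrial RNase P, with log2 changes of -0.24 and -0.29. Whether these lists differ from one another was not tested.

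Cytosolic ribosomal proteins had 47 of 83 tested genes lower (56.6%) and none higher, beside 18.9% and 19.9% of all tested genes. Their median log2 change was -0.17. RPS29, RPL23A and RPSA were among those with the smallest p, with log2 changes of -0.49, -0.29 and -0.39. Nuclear subunits of the respiratory chain and ATP synthase, listed by symbol, had 23 of 82 lower (28.05%) and 5 higher (6.1%), with a median of -0.07. The list by symbol also holds the joined loci ATP5MF-PTCD1, which was called lower, and NDUFC2-KCTD14, and the inhibitor ATP5IF1. NDUFS5 rose by 0.32 on the log2 scale, NDUFC1 and ATP5MJ fell by 0.28 and 0.31, and COXFA4L2 had 0.57, 0.41 and 0.67 FPKM in the RNF186 line, against 5.96, 6.54 and 6.42 FPKM in the vector line.

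Regulators of mitochondrial gene expression had 5 of 11 genes lower (45.45%) and 1 higher (9.09%), beside 18.9% and 19.9% of all tested genes. HCFC1, a cofactor of several promoter-binding factors, had 18.8, 23.3 and 19.7 FPKM in the RNF186 line, against 27.2, 25.9 and 26.5 FPKM in the vector line (log2 change -0.35, limma adjusted p = 0.00446). PPRC1, the nuclear receptor ESRRA, YY1 and MYC also fell, by 0.21, 0.32, 0.18 and 0.20 on the log2 scale. PPARGC1A, the coactivator PGC-1alpha, rose by 0.24 at a low level of 3.92 ± 0.235 FPKM in the RNF186 line and 3.16 ± 0.291 FPKM in the vector line (SD, n = 3 each). NRF1 and GABPA, factors known to bind promoters of mitochondrial genes, did not pass the test, with log2 changes of -0.13 and 0.04.

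Promoter windows were searched for the binding cores of such factors. RefSeq windows on GRCh38.p14, running from 250 bases before to 50 bases after the gene start, matched 69 of the 77 members, and the first window listed for a gene was used. Both strands were searched for CCGGAAG (ETS and GABPA core), GCGCANGCG (NRF1 core), AAGATGGCG (YY1 core) and CACGTG (E-box), and matches to different motifs shared bases in 0 of the 69 member windows. The ETS core was in 29 member windows (42.0%), beside 20.7% of 9599 windows of tested genes and 10.7% of all 27305 windows. The YY1 core was in 13 (18.8%), beside 4.24% and 1.85%, and the NRF1 core in 13 (18.8%), beside 15.6% and 8.05%. The E-box was in 6 (8.7%), beside 10.3% and 7.43%. The ETS core was in 41.7% of 36 windows of members that fell and in 42.4% of 33 windows of the other members. In the same order the YY1 core was in 13.9% and 24.2%, the NRF1 core in 16.7% and 21.2%, and the E-box in 11.1% and 6.06%. Whether any of these shares differ was not tested. A match is a description of the sequence and not a site.

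Promoters of the 2 members with the greatest falls and of the member with the greatest rise are shown to compare members that moved in opposite directions. Each runs from 150 bases before to 30 bases after the start on the plus strand, and capitals mark the ETS core on either strand. The windows are MRPS12 at chr19:38930794-38930973, MRPL12 at chr17:81703217-81703396 and MRPL48 at chr11:73787724-73787903.
MRPS12: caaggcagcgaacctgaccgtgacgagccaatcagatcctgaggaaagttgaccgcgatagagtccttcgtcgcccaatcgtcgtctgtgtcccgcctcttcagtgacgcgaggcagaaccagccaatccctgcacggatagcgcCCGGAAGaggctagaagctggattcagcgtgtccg
MRPL12: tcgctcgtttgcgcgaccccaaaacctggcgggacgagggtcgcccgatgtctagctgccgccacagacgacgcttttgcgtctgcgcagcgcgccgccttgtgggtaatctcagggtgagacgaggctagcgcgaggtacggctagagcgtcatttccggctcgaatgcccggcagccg
MRPL48: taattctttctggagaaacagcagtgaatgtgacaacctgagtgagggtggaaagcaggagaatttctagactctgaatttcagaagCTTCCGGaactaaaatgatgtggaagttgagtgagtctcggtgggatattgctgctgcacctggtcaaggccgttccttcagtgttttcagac
The core lies on the printed strand in MRPS12, which fell, and on the opposite strand in MRPL48, which rose. MRPL12 has none of the 4 motifs in the printed stretch.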

How the data were processed

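RNA was sequenced in 6 libraries, 3 of an RNF186-overexpressing and 3 of a vector line, which the labels' protocols say were prepared from total RNA with the TruSeq kit. The deposited values are FPKM, computed by the authors and given to 2 decimals. The submitters' processing notes name Bowtie 0.12.2 and the builds mm8 and mm9. Both are mouse builds, whereas the organism label and the gene identifiers are human, so the build behind the values is unsettled, and the counting program and annotation are not given in the sources used here. FPKM holds no counts, so no count model was used and precision rests on the spread between dishes.

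Of 19485 table rows, 1 names no gene and 1921 have no values. Of the 17563 others, 17524 identifiers matched a RefSeq symbol. Genes averaging 1 FPKM or more were tested with limma 3.58.1 in R 4.3.3 on log2(FPKM + 1), with empirical Bayes moderation and a mean-variance trend, no covariates, two-sided, with Benjamini-Hochberg adjustment over 11632 genes and a call at an adjusted p under 0.05. The fit was tested on simulated data. A log2 change on this scale understates the change of low genes. Transcript length and GC content came from GENCODE release 29, and promoter windows from RefSeq on GRCh38.p14. Correlations across genes are descriptions without a p, since genes share libraries.

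The members and lists were chosen with earlier results of these data known. Named members are the 10 greatest falls and all rises among called members without overlap, the 3 highest and 3 lowest levels, the position lists, and up to 4 called genes of each related list; any other gene was named with its values known. Alternatives changed the pseudocount, filter, scaling, variance model, replicate block, libraries, length and GC correction and threshold, which with the threshold apart gave 18 fits.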

Additional observations from a re-analysis of the deposited data

How the results depend on the processing

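No called member was called in the opposite direction in an alternative fit. Of the 40 called members 27 kept their call in all 18 alternative fits, 26 of them lower. Among the 37 members not called, 24 were called in at least 1 alternative fit, 19 of them after the length and GC correction. Pseudocounts of 0.1 and 0.5 and a filter at 5 FPKM left every count within 1.5 times. The number of members called higher was 1 under median scaling, without the mean-variance trend and with the replicate block, and 4 with array weights, 1 of them in the small subunit; the large subunit had 1 in the first 3 of these. Rescaling to TPM gave median changes of -0.13 for all members, -0.16 for the large and -0.0747 for the small subunit, and quantile normalization -0.10 for the small subunit. The length and GC correction gave medians of -0.20 for all members and -0.15 for the small subunit, the same with the replicate block. Without that block it gave 18 small-subunit members lower, beside 28.4% of all tested genes. At an adjusted p under 0.01, 1465 genes were higher and 1121 lower, with 1 member higher and 25 lower, of which 1 and 16 were in the large subunit. Leaving out 1 library gave ranges of 1708 to 2710 genes higher and 1432 to 2949 lower (1432 without RNF186 replicate 3), of 1 to 4 members higher and 29 to 46 lower, of 1 to 3 large-subunit members higher and 18 to 34 lower with medians of -0.25 to -0.17, and of 0 to 1 small-subunit members higher. The difference in the ratio of the subunit sums was -0.1084 to -0.0767. The cause of these shifts was not tested. Whether the replicate numbers pair the samples was not settled. Deviations of same-numbered libraries correlated at -0.274, -0.069 and 0.255, and those of differently numbered libraries at -0.375 to 0.389. Libraries also deviated along GC content, so these values cannot decide the pairing. The replicate block gave 2050 genes higher and 1987 lower, and 1 member higher and 38 lower. A gene below the limit of 1 FPKM was not tested, and without counts the precision of single values cannot be given.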
